A study of Mus musculus with 14 samples.

Results

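The 10 genes described here make or control new fatty acids in the liver: Fasn, Acaca, Acacb, Acly, Scd1, Elovl6, Srebf1, Pklr, Thrsp and Mlxipl. They were chosen by name, as the enzymes of de novo lipogenesis and the factors known to govern them, with earlier results of these data known. Their shared direction is therefore a description and not independent support. Their microarray probes were found by matching each probe's RefSeq accession to the gene. All 10 were found, on 14 probes, among 21976 features tested. The samples were livers of 14 female B6C3F1 mice, a first-generation cross used widely in toxicology, bought at 5 to 6 weeks of age. Every mouse drank water with BrdU, a thymidine analogue that marks dividing cells, for the last 5 days, so no group here was free of BrdU. There were 4 control mice gavaged with corn oil, 5 mice gavaged with furan at 1 mg/kg and 5 at 8 mg/kg. Furan is a small volatile ring ether formed in heated food, which the liver converts to a reactive dialdehyde. Gavage lasted 21 days, and livers were removed 4 h after the final gavage.

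Hepatocytes build fatty acids from surplus carbohydrate. Glycolysis yields pyruvate, mitochondrial citrate carries the carbon to the cytosol, ATP citrate lyase frees acetyl-CoA, acetyl-CoA carboxylase makes malonyl-CoA, and fatty acid synthase joins the units into palmitate, which is then elongated and desaturated. SREBP-1c, which responds to insulin, and ChREBP, which responds to glucose metabolites, drive transcription of these enzymes, and both fall on fasting.

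The values are log2 ratios of liver RNA (Cy5) over one universal mouse reference RNA (Cy3) on the same spot. A ratio ranks arrays for 1 gene and does not rank genes against each other. A gene was called changed where its adjusted p was under 0.05 in limma's moderated test, fitted over all features and all 14 arrays with the slide as a block. The design text describes the replicates as biological. Precision is limited by how few arrays each group had. In whole liver, fewer cells of a type and less RNA per cell cannot be told apart.

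The arrays lay on 5 slides, numbered 1 to 5 here, and slide 5 held no control array. Slide 3 stood apart. The mean log2 ratio of 11 hepatocyte marker genes was 7.49 to 7.78 on its 3 arrays, which came from all 3 dose groups, against 6.07 to 6.66 on the other 11 arrays. Control replicate 3, on slide 3, had the highest log2 ratio of all 14 arrays for 9 of the 10 members. The slide block removes what the arrays of a slide share, but it does not remove what sets this control apart from its slide partners, so results are also given without slide 3. Probes well above background in the liver channel numbered 23061 to 29844 per array.

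The promoter sequences of Fasn, Acacb and Pklr are shown because Fasn had the lowest fitted difference from control and the other two passed the test at 8 mg/kg. Each is the 250 bases before an annotated start, read 5′ to 3′ along the gene's own strand, from RefSeq on build GRCm38.p6, with capitals marking CCAAT or its reverse complement. Pklr is given at both of its annotated starts, since its transcripts for liver and red cells begin at separate first exons. The gene spans on the same build were chr11:120805958-120825166 for Fasn, chr5:114146321-114250761 for Acacb and chr3:89136122-89146815 for Pklr. The Fasn, Acacb and second Pklr stretches lie inside these spans, so each precedes an internal annotated start. No window at the 5′ end of the Fasn or Acacb span was searched.
Fasn, chr11:120824548-120824797, minus strand: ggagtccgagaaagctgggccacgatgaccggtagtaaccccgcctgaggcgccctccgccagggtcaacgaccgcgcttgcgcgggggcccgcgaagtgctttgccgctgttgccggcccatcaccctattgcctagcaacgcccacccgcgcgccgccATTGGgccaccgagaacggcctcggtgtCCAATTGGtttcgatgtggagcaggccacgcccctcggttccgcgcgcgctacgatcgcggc
Acacb, chr5:114165268-114165517, plus strand: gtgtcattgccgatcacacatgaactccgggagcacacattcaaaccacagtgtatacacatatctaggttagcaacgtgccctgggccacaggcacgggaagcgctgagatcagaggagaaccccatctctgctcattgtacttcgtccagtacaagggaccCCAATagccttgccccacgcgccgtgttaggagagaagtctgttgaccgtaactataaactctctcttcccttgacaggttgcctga
Pklr first start, chr3:89135892-89136141, plus strand: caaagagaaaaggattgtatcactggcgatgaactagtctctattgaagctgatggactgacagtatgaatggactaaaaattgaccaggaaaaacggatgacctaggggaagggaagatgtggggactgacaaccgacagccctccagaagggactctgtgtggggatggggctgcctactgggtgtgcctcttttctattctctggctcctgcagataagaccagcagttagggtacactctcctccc
Pklr second start, chr3:89136373-89136622, plus strand: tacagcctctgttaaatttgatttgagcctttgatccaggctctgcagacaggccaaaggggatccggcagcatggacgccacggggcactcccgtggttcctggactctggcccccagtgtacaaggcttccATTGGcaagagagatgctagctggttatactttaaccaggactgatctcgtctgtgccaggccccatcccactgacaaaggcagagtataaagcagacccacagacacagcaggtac

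Short motifs were searched on both strands of each RefSeq window, which runs from 250 bases before to 50 bases after a start. CCAAT, the box bound by NF-Y, which acts beside SREBP at many lipogenic promoters, was found in 8 of 13 member windows, which belong to 9 genes, against 37.4% of all 32851 mouse windows. The Fasn window held 3 copies, at bases -90, -62 and -59 from the start, of which the last 2 share letters. The Acacb window, around a start inside the gene, held 1 at -87, and the second Pklr window held 1 at -117 while the first held none. GGGCGG, the box bound by Sp1, was found in 4 of 13 member windows, against 35.7% of all windows, with 4 copies in the Acly window. The exact E-box CACGTG, read by USF, was found in 1 of 13 member windows, of Mlxipl, against 7.15% of all windows. Paired or imperfect E-boxes, such as ChREBP uses, were not searched, so a window without CACGTG may still hold a ChREBP site. TCACNCCAC, a sterol element that SREBP binds, was also found in 1 of 13, a window at another start of Mlxipl, against 1.24% of all windows. These matches are descriptions of letters near annotated starts.

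At 8 mg/kg against control, 2 of the 10 members were called, both lower: Acacb and Pklr. No member was called higher. Over all features 4.09% were called in this comparison, and 1.36% were called lower. The fitted log2 differences of the 10 members ran from -0.89 to -0.19 with a median of -0.56, while the median of all features was 0.0018. All 10 differences lay below 0, as did 49.5% of all features. The unadjusted p was under 0.05 for 7 members, compared with 20.3% of all features in either direction and 8.75% lower. Without slide 3 the members' median was -0.27 and only Acacb remained called, so the members' shared shift was cut by more than 1.5 times when those 3 arrays were left out.

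**Figure D1:**
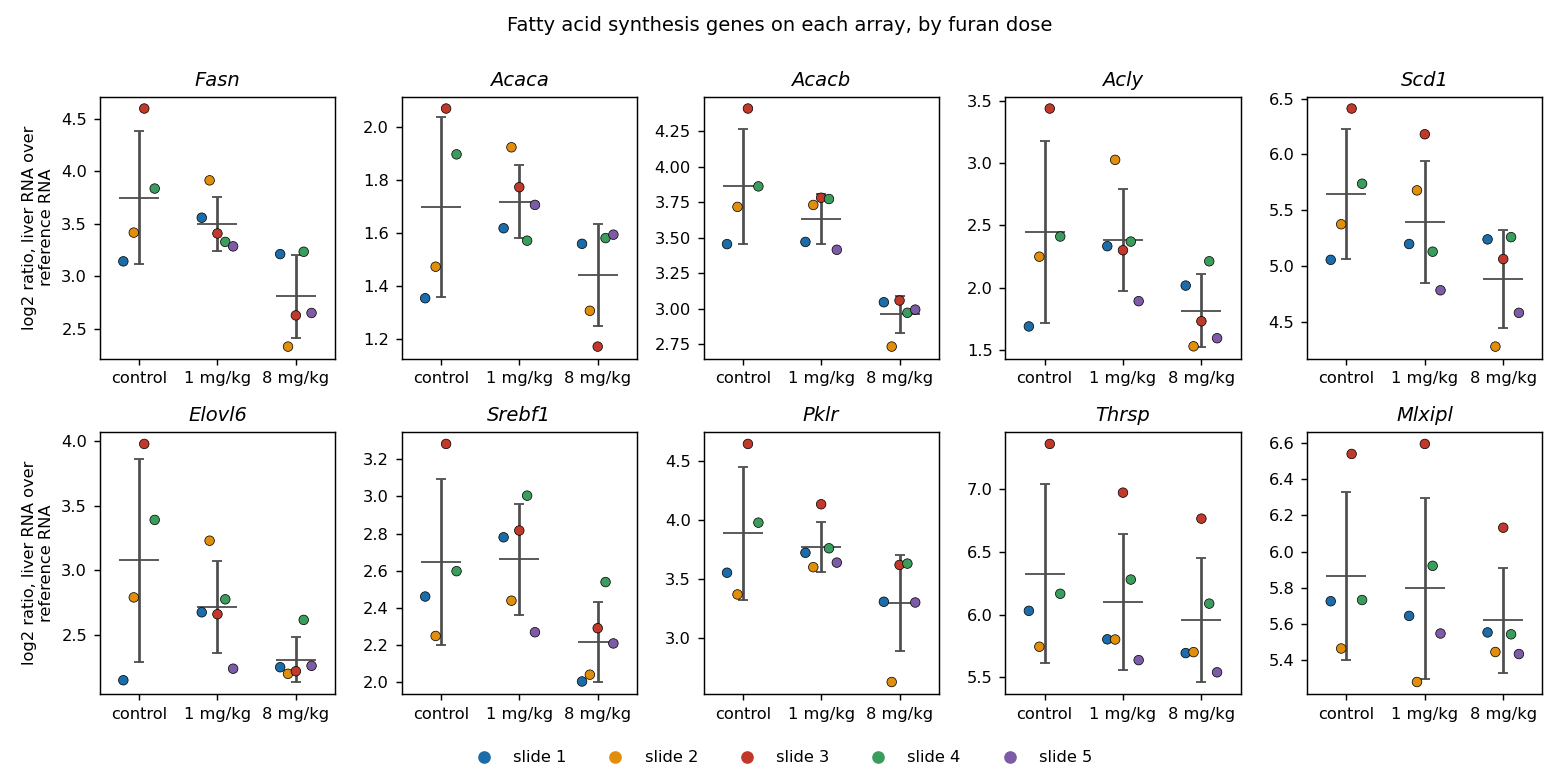
Log2 ratio of liver RNA over reference RNA for each of the 10 genes (vertical axes, own scale per gene) on each array, by dose (horizontal axes). Points are single arrays coloured by slide, and bars are group mean ± SD (n = 4 control, 5 at 1 mg/kg, 5 at 8 mg/kg). Acacb is the gene whose 8 mg/kg points all lie below its control points, and the red slide 3 control point is the highest of 14 for all genes but Mlxipl.

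Acetyl-CoA carboxylase makes malonyl-CoA in the committed step of the pathway, and mammals have 2 forms of it. Acacb encodes the form held at the outer mitochondrial membrane, whose malonyl-CoA is known to restrain carnitine palmitoyltransferase and so the entry of fatty acids into oxidation. The log2 ratios of Acacb were 3.46, 3.72, 4.41 and 3.86 in the 4 control livers. They were 3.47, 3.42, 3.73, 3.78 and 3.77 in the 5 livers at 1 mg/kg. They were 3.05, 3.06, 3.00, 2.97 and 2.73 in the 5 livers at 8 mg/kg. Every liver at 8 mg/kg lay below every control liver and every liver at 1 mg/kg, whereas the ranges of the control and 1 mg/kg groups overlapped. Acacb was the only member with such a gap between 8 mg/kg and control, a pattern shown by 2.13% of all features.

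Acacb fell at 8 mg/kg by 0.88 on the log2 scale relative to control (SE 0.13, 1.84-fold lower, limma adjusted p = 0.00195). It ranked 88th of the 21976 features by p. Within slides the difference was -0.41, -0.98, -1.35 and -0.89 on slides 1 to 4, lower at 8 mg/kg on each. A second Acacb probe, dimmer than the first, gave -0.91 ± 0.16 (SE, adjusted p = 0.00592 with each probe fitted on its own). Without slide 3, Acacb was -0.72 with an adjusted p of 0.0151.

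Acaca encodes the cytosolic form, which supplies malonyl-CoA for chain building. Its log2 ratios were 1.35, 1.47, 2.07 and 1.90 in control livers. They were 1.62, 1.71, 1.92, 1.77 and 1.57 at 1 mg/kg. They were 1.56, 1.17, 1.59, 1.58 and 1.31 at 8 mg/kg. The ranges overlapped, and 3 of the 5 livers at 8 mg/kg lay within the range of the control livers and the other 2 below it. The fitted difference between 8 mg/kg and control was -0.27 ± 0.15 (SE, limma adjusted p = 0.320, 95% interval -0.59 to 0.04). It was -0.12 without control replicate 3, -0.14 without replicate 2 at 8 mg/kg and -0.08 without slide 3. Of the 2 dimmer probes of Acaca, 1 gave -0.34 ± 0.16 and the other 0.02 ± 0.14 (SE). The latter lay within its SE of 0, so its sign was not determined.

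The 2 carboxylase genes are set side by side within each array, as the log2 ratio of Acacb minus that of Acaca from the brightest probe of each. The pair was picked after their values were seen, so the values are a description with no test. The difference averaged 2.16 ± 0.16 in control livers, 1.92 ± 0.19 at 1 mg/kg and 1.52 ± 0.21 at 8 mg/kg (SD, n = 4, 5 and 5). It ran from 1.39 to 1.89 at 8 mg/kg and from 1.96 to 2.34 in control livers.

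Pklr encodes liver pyruvate kinase, which turns phosphoenolpyruvate into pyruvate at the end of glycolysis and is a classical target of ChREBP. Its log2 ratios were 3.55, 3.37, 4.64 and 3.98 in control livers. They were 3.72, 3.64, 3.60, 4.13 and 3.76 at 1 mg/kg. They were 3.31, 3.62, 3.30, 3.63 and 2.63 at 8 mg/kg. The ranges of 8 mg/kg and control overlapped, with 2 of the 5 livers at 8 mg/kg above the lowest 2 controls. Pklr fell at 8 mg/kg by 0.57 on the log2 scale relative to control (SE 0.13, 1.48-fold lower, limma adjusted p = 0.0312), and the difference was below 0 on each of the 4 slides, at -0.24, -0.74, -1.02 and -0.35.

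The Pklr ratio rested on a dim reference. Its Cy3 signal exceeded the local background by only 2 to 54 intensity units, and was well above background on 11 of 14 arrays, failing on control replicate 4 and on 8 mg/kg replicates 3 and 4. Every other member was well above background in both channels on all 14 arrays. From the liver channel alone the Pklr difference was -0.53 with an adjusted p of 0.072, and without slide 3 it was -0.42 with an adjusted p of 0.131. The call for Pklr held under 12 of 28 alternative treatments of the data, and the call for Acacb under all 28.

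Fasn encodes fatty acid synthase, the enzyme that builds palmitate. Its log2 ratios were 3.14, 3.42, 4.60 and 3.84 in control livers. They were 3.56, 3.29, 3.92, 3.41 and 3.33 at 1 mg/kg. They were 3.21, 2.63, 2.65, 3.23 and 2.33 at 8 mg/kg. Every 8 mg/kg liver lay below every 1 mg/kg liver, while the lowest control lay among the 8 mg/kg livers. The difference between 8 mg/kg and control was -0.89 ± 0.26 (SE, 1.86-fold lower), as low as that of Acacb, but its spread was larger and it was not called (limma adjusted p = 0.0689). Without slide 3 it was -0.54. The call for Fasn, absent in the main fit, appeared under 3 of 28 alternative treatments of the data.

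Acly encodes ATP citrate lyase, the source of cytosolic acetyl-CoA. The log2 ratio of Acly ran from 1.69 to 3.44 in control livers, 1.89 to 3.03 at 1 mg/kg and 1.53 to 2.21 at 8 mg/kg. The 3 ranges overlapped. The difference between 8 mg/kg and control was -0.54 ± 0.26 (SE, limma adjusted p = 0.268), and -0.15 without control replicate 3. A second Acly probe gave -0.61 ± 0.21 (SE, adjusted p = 0.133 with each probe fitted on its own).

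Scd1 and Elovl6 act on the finished chain: Scd1 encodes stearoyl-CoA desaturase, which makes oleate, and Elovl6 the elongase that turns palmitate into stearate. The Scd1 log2 ratio ran from 5.06 to 6.41 in control livers, 4.79 to 6.18 at 1 mg/kg and 4.28 to 5.26 at 8 mg/kg. The Elovl6 log2 ratio ran from 2.15 to 3.98 in control livers, 2.24 to 3.23 at 1 mg/kg and 2.20 to 2.62 at 8 mg/kg. For both genes the ranges overlapped, and the 8 mg/kg livers were closer together than the controls. Neither was called between 8 mg/kg and control, with -0.65 ± 0.22 for Scd1 (limma adjusted p = 0.118) and -0.70 ± 0.24 for Elovl6 (adjusted p = 0.122, both SE). For Elovl6 the difference was -0.36 without control replicate 3.

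Srebf1 encodes SREBP-1, and its probe does not tell the 1a and 1c forms apart here, since its place in the transcripts was not determined. Its log2 ratios were 2.46, 2.25, 3.28 and 2.60 in control livers. They were 2.78, 2.27, 2.44, 2.82 and 3.00 at 1 mg/kg. They were 2.0, 2.29, 2.21, 2.54 and 2.04 at 8 mg/kg. The ranges overlapped, with the middle of the 8 mg/kg livers below every control. The difference between 8 mg/kg and control was -0.38 ± 0.14 (SE, limma adjusted p = 0.146), below 0 on each of 4 slides, and -0.19 without control replicate 3.

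Thrsp (Spot 14) is a small nuclear protein induced by thyroid hormone and carbohydrate, and Mlxipl encodes ChREBP. The Thrsp log2 ratio ran from 5.74 to 7.36 in control livers, 5.64 to 6.97 at 1 mg/kg and 5.54 to 6.76 at 8 mg/kg. The Mlxipl log2 ratio ran from 5.47 to 6.54 in control livers, 5.28 to 6.59 at 1 mg/kg and 5.44 to 6.13 at 8 mg/kg. In all 3 groups the slide 3 array was the highest for both genes. With the slide as a block the differences between 8 mg/kg and control were -0.26 ± 0.10 for Thrsp (limma adjusted p = 0.148) and -0.19 ± 0.10 for Mlxipl (adjusted p = 0.299, both SE). On each of the 4 slides both differences lay below 0. From the liver channel alone the Thrsp difference was -0.76, and without control replicate 3 it was -0.16. For Mlxipl it was -0.12 without replicate 2 at 8 mg/kg.

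**Figure D2:**
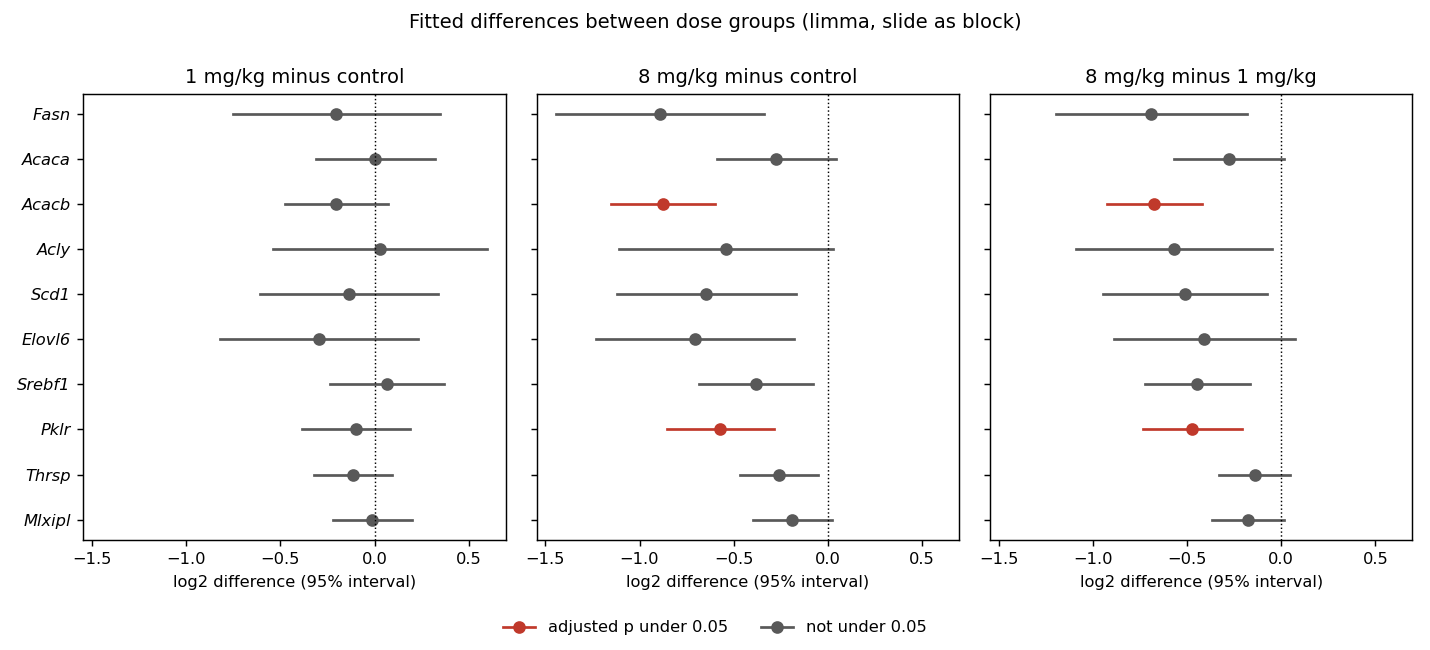
Fitted log2 differences (horizontal axes) with 95% intervals for the 10 genes in the 3 comparisons, from the limma fit with slide as block. Red marks an adjusted p under 0.05, which Acacb and Pklr reach in both comparisons of 8 mg/kg, and no gene reaches at 1 mg/kg against control.

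At 1 mg/kg against control no member was called, and the smallest adjusted p among the 10 was 0.762, for Acacb (limma). Over all features 0% were called in this comparison. No member had an unadjusted p under 0.05, against 6.87% of all features in either direction and 1.95% lower, and none had every 1 mg/kg liver below every control, against 0.305% of all features. The members' log2 differences ran from -0.30 for Elovl6 to 0.06 for Srebf1, with a median of -0.11, and 7 of 10 lay below 0, against 39.6% of all features. The 95% interval for Acacb, -0.48 to 0.07, did not reach the difference of -0.88 seen at 8 mg/kg. That of Fasn, -0.75 to 0.35, was wide. Without slide 3 the members' median was 0.04, with 4 of 10 below 0.

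At 8 mg/kg against 1 mg/kg, 2 members were called, again Acacb and Pklr and again lower, against 5.29% of all features in either direction and 2.87% lower. This comparison shares its 8 mg/kg livers with the comparison against control. Acacb fell by 0.67 (SE 0.12, limma adjusted p = 0.00570) and was lower at 8 mg/kg on each of 5 slides. Pklr fell by 0.47 (SE 0.12, adjusted p = 0.0404), though with the scanner's own processed signals it was 0.20. Fasn at -0.69 ± 0.24 (adjusted p = 0.107) and Srebf1 at -0.45 ± 0.13 (adjusted p = 0.0623) were not called. An unadjusted p under 0.05 was found for 6 members, against 21.4% of all features in either direction and 12.4% lower. All 10 differences lay below 0, as did 56.4% of all features, and 2 members, Acacb and Fasn, had every 8 mg/kg liver below every 1 mg/kg liver, as did 1.61% of all features. The members' median was -0.46, and -0.41 without slide 3. Cell type marker lists also lay mostly below 0 here. Of 9 tested adipocyte markers, 7 had differences below 0, with a median of -0.30, 2 called lower (Adrb3 and Lipe) and 1 called higher (Lpl). The lowest was Cfd at -0.93, not called and well above background on only 3 of 5 arrays at 1 mg/kg and 1 of 5 at 8 mg/kg. Of 11 tested hepatocyte markers, 10 lay below 0, with a median of -0.11 and none called. The part of either in the members' values was not tested.

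**Figure D3:**
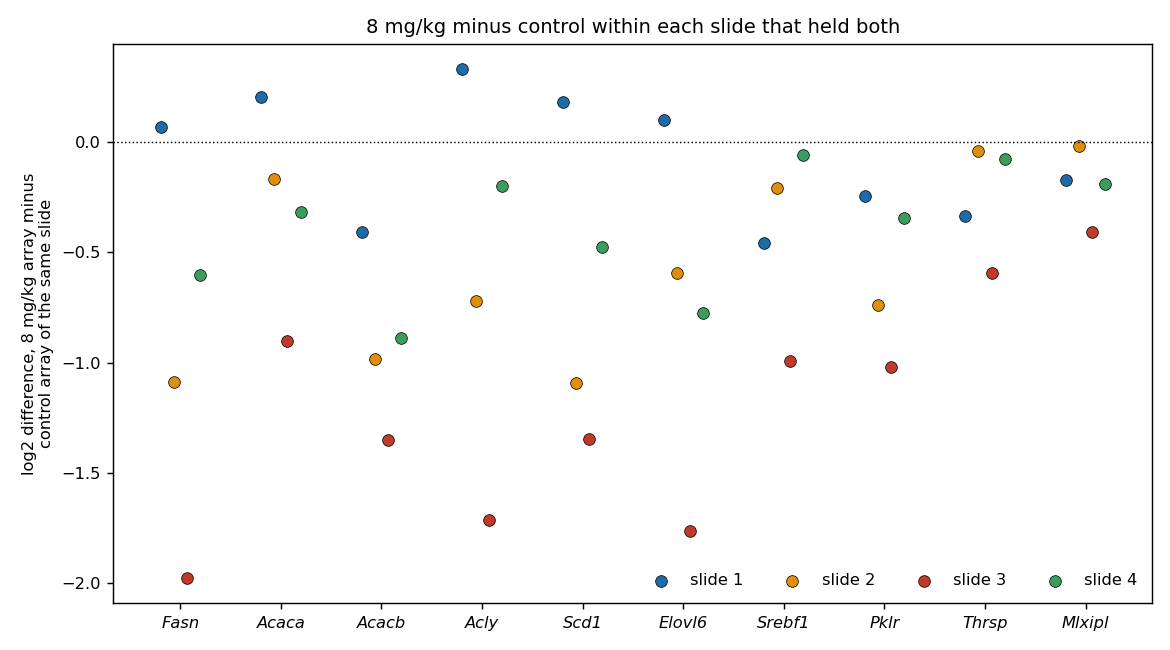
Log2 difference between the 8 mg/kg array and the control array of the same slide (vertical axis) for each gene (horizontal axis), with 1 point for each of the 4 slides that held both. Slide 3 gives the lowest point for every gene, and on slide 1 the points of Fasn, Acaca, Acly, Scd1 and Elovl6 lie above 0, from 0.07 to 0.33.

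The size of the difference from control varied by slide. The members' median of 8 mg/kg minus control was -0.05, -0.66, -1.18 and -0.33 on slides 1 to 4, while the median of all features stayed between -0.03 and 0.03. Slide 1 thus showed almost no shift for the members as a group, with Fasn, Acaca, Acly, Scd1 and Elovl6 above 0. Acacb, Srebf1, Pklr, Thrsp and Mlxipl were lower at 8 mg/kg on all 4 slides. Between 8 and 1 mg/kg the members' median was -0.33, -0.98, -0.55, -0.16 and -0.16 on slides 1 to 5, below 0 on each.

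The spread of the members between arrays of 1 group included differences between slides. The within-group SD of the log2 ratio had a median of 0.431 over the 10 members, against 0.176 over all features. Among all features the members stood between the 74.7th percentile, for Acaca, and the 98.9th, for Thrsp. With dose group and slide both fitted, the residual SD had a median of 0.260 over the members and 0.143 over all features. Thrsp then stood at the 42.8th percentile and Mlxipl at the 46.7th, while the other 8 stood between the 87.4th, for Acacb, and the 99.5th, for Acly. The averaged members ranged between control livers from 3.46 in replicate 1 to 4.67 in replicate 3, and were lowest of all in replicate 5 at 8 mg/kg, at 3.02. That liver had the lowest value of the 14 for 5 members.

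Most members rose and fell together over the 14 arrays, with dose group means left in, so differences between dose groups are included. After the slide means were removed, each member was set against the mean of the other 9 over the 14 arrays, as a description, with the arrays sharing dose groups and slides. The correlation r was highest for Fasn (0.973), Pklr (0.971) and Acly (0.928), and lowest for Srebf1 (0.771), Thrsp (0.724) and Mlxipl (0.414). Over the 45 pairs r ran from 0.231 to 0.972 with a median of 0.780.

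**Figure D4:**
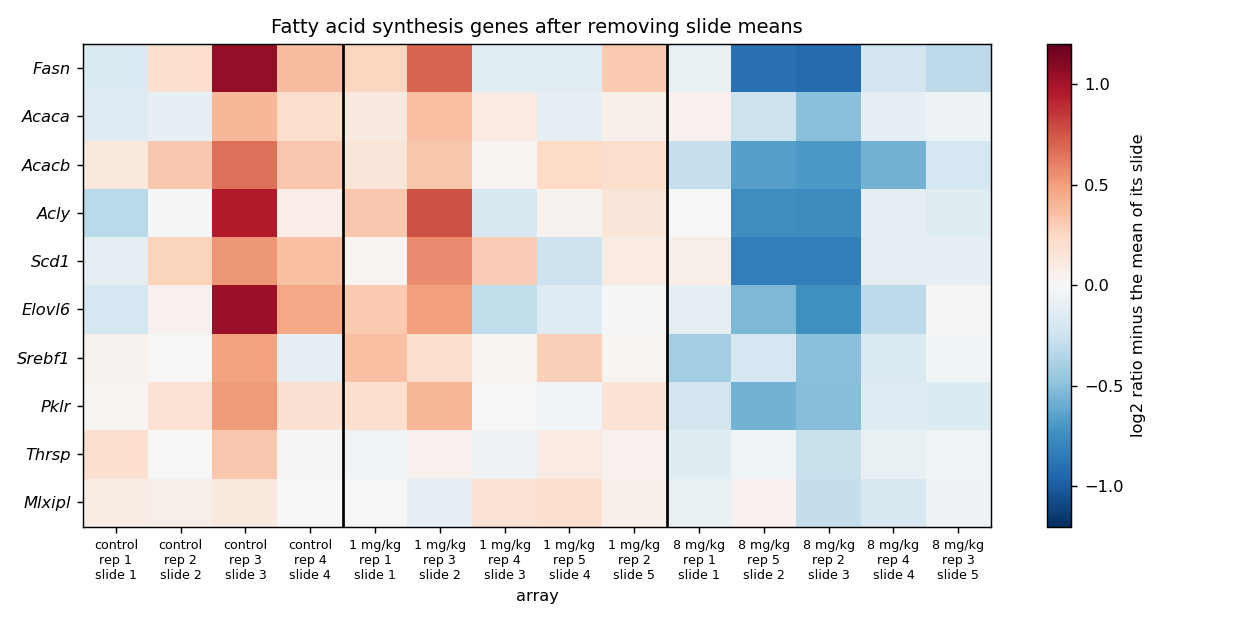
Log2 ratio minus the mean of its slide (colour) for the 10 genes (rows) on the 14 arrays (columns, ordered by dose and then slide). Control replicate 3 is the reddest column, at a mean of 0.61 over the 10 genes, and 8 mg/kg replicates 2 and 5 are the bluest, at -0.60 and -0.47.

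Outside the list, the genes whose slide-adjusted course was most like the members' mean were Wdcp (r = 0.955), Pfkfb1 (0.949), Prkag2 (0.946), Rab4b (0.933) and Scd3 (0.931), followed by Pla2g15, Paox, Glrx, Cnp and Mrps27 at 0.930 to 0.919. Pfkfb1 encodes the liver form of the bifunctional enzyme that sets fructose 2,6-bisphosphate, a switch of glycolysis, and Prkag2 a regulatory subunit of AMP-activated kinase. Scd3 is a desaturase closely related to Scd1, so its probe may share signal with it. Of these 10 genes, Pfkfb1 fell at 8 mg/kg by 0.60 (adjusted p = 0.0299) and Glrx by 0.40 (adjusted p = 0.0331), and the other 8 were not called (limma).

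Genes beside the pathway are given by list for the comparison of 8 mg/kg with control. Of 18 genes that supply carbon and NADPH, 1 was lower, 0 higher and 17 did not pass, with a list median of 0.0054. The one lower was Pfkfb1, while Me1, malic enzyme, had -0.44 ± 0.17 (adjusted p = 0.161) and Acss2, an acetyl-CoA synthetase, -0.54 ± 0.21 (adjusted p = 0.154). Pgam1 and G6pdx had positive differences, 0.39 ± 0.12 (adjusted p = 0.0738) and 0.37 ± 0.16 (adjusted p = 0.215, all SE).

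Of 15 genes for other desaturation, elongation and acyl activation steps, 1 was lower, 0 higher and 14 did not pass, with a median of -0.06. Elovl3, an elongase of very long chains, fell by 0.94 (SE 0.18, limma adjusted p = 0.0124) and was well above background on 4 of the 5 arrays at 8 mg/kg and on all control arrays. Scd2, a desaturase known mostly from brain and young tissue, had 0.54 ± 0.16 (SE, adjusted p = 0.0803), opposite in sign to Scd1.

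Triglyceride assembly genes held 3 higher, 0 lower and 15 that did not pass among 18 tested of 19, with a median of 0.07. Cidec, a lipid droplet protein, rose by 1.30 (SE 0.26, limma adjusted p = 0.0140). Mogat1, a monoacylglycerol acyltransferase, rose by 0.67 (SE 0.14, adjusted p = 0.0158), and Agpat3, an acyltransferase, by 0.32 (SE 0.08, adjusted p = 0.0339). These 3 moved opposite to Acacb and Pklr, while 7 of the 18 differences in the list lay below 0. The lowest were Pnpla5 at -0.49 ± 0.28 (adjusted p = 0.339), Lpin1 at -0.49 ± 0.28 (adjusted p = 0.352) and Plin5 at -0.35 ± 0.11 (adjusted p = 0.0871, all SE).

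Of 24 genes listed under control of SREBP-1c and ChREBP, 1 was lower, 0 higher and 23 did not pass, with a median of -0.07. The list is broad and includes genes beside these factors, such as Mlycd and Abca1. The one lower was Nr0b2, which encodes the bile acid induced repressor SHP, at -1.02 ± 0.27 (SE, limma adjusted p = 0.0487). Insig2, which retains SREBP in the endoplasmic reticulum, had 0.46 ± 0.25 (adjusted p = 0.326). Of 19 tested genes that answer to feeding and insulin, 2 were higher, 0 lower and 17 did not pass, with a median of -0.10. The 2 were Igfbp1, a secreted insulin-like growth factor binding protein that insulin represses, at 1.10 ± 0.21 (adjusted p = 0.0125), and Pdk4, which shuts pyruvate out of oxidation on fasting, at 0.85 ± 0.20 (adjusted p = 0.0308). Fgf21, a fasting hormone of liver, had 0.85 ± 0.23 (adjusted p = 0.0569). The list was not sorted by the direction in which each gene answers to feeding, so its signs have no single meaning. Of its 19 differences, 13 lay below 0, and 0 of these were called. The lowest were Txnip at -0.42 ± 0.16 (adjusted p = 0.156), Pygl at -0.25 ± 0.11 (adjusted p = 0.194) and Ppargc1a at -0.17 ± 0.21 (adjusted p = 0.703). The part of feeding state in the members' values was not tested.

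**Figure D5:**
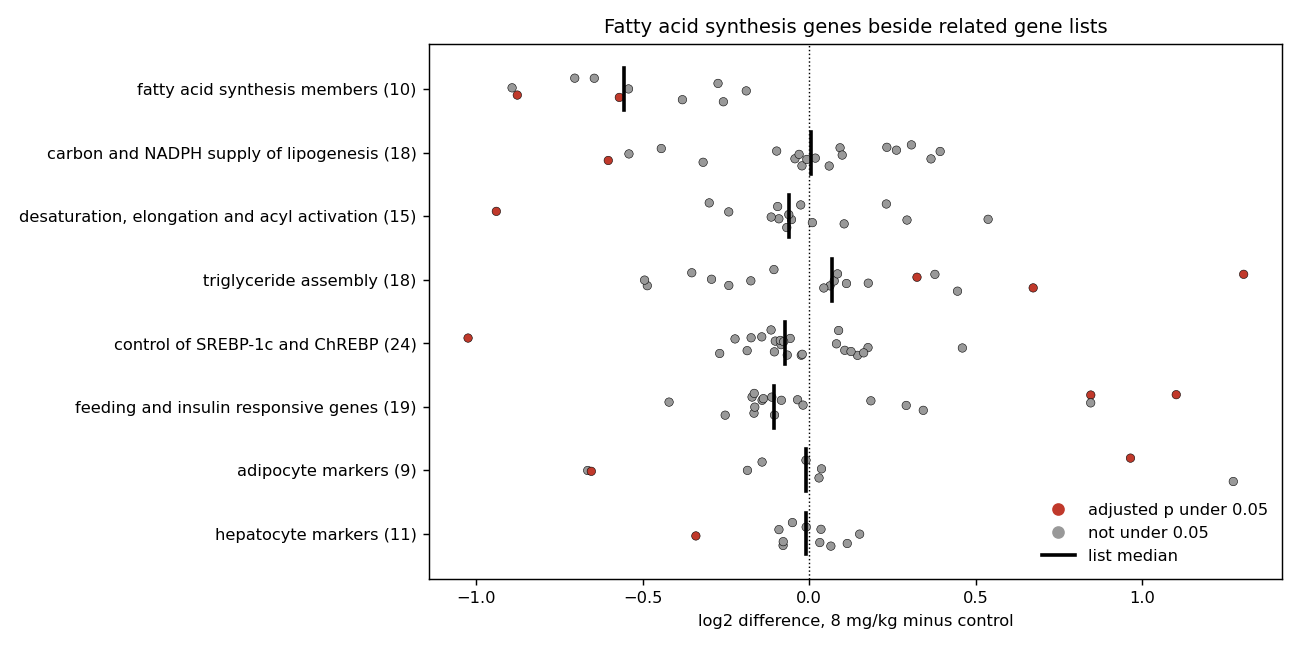
Log2 difference between 8 mg/kg and control (horizontal axis) for the members (top row) and the genes of 7 other lists (rows, with the number tested), each point a gene, the bar the list median. The members' median is -0.56, and the other lists' medians lie between -0.10 and 0.07.

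Without slide 3, the 11 called genes outside the members kept their sign, but 2 of them, Igfbp1 at 1.26 (adjusted p = 0.0251) and Adrb3 at -0.64 (adjusted p = 0.0430), stayed under the threshold (limma). In the carbon and NADPH supply list 1 gene was then called higher, against 0 with all arrays, and the list median was 0.13. The log2 differences without slide 3 were 1.35 for Cidec, 0.91 for Pdk4, 0.34 for Agpat3 and -0.33 for Cps1, close to those with all arrays. They were -0.81 for Elovl3, 0.70 for Lpl, 0.49 for Mogat1, -0.43 for Pfkfb1 and -0.59 for Nr0b2, nearer to 0 than with all arrays. At 1 mg/kg no gene of any list was called.

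The label liver was borne by its markers: Alb, Ttr and Apoa1 were well above background on all 14 arrays. Of 11 tested hepatocyte markers, 1 was lower at 8 mg/kg, Cps1 at -0.34 ± 0.08 (SE, limma adjusted p = 0.0335), 0 were higher and 10 did not pass, with a median of -0.0093. Fat tissue also makes fatty acids, so markers of adipocytes were examined. Of 15, only 9 passed the detection filter, and Adipoq, Lep, Retn, Plin1, Cidea and Ucp1 did not. The mean log2 ratio of the 9 was 1.52 to 2.08 in control livers, 1.64 to 2.77 at 1 mg/kg and 1.57 to 2.0 at 8 mg/kg, and replicate 5 at 1 mg/kg was the highest. The 9 included Cfd, which passed the filter only through furan arrays, being well above background on 0 of 4 control arrays. Its difference from control was 2.20 at 1 mg/kg and 1.27 at 8 mg/kg, neither called. They also included Pck1, at 9.00 in control livers and also in the feeding list, so the mean does not measure adipocyte RNA alone. Between 8 mg/kg and control Lpl was higher at 0.96 and Adrb3 lower at -0.65, with 7 not called. Adipoq was well above background on 1 of 5 arrays at 8 mg/kg, 2 of 5 at 1 mg/kg and 0 of 4 control arrays, and the part of adipocyte RNA in the members' values was not tested.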

How the data were processed

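Liver RNA of 14 mice was hybridised against a universal reference on Agilent 8x60K arrays. Per the file headers, the deposited intensity values were read with Feature Extraction 10.7.3.1. The deposited log10 ratios served to check the dye direction and, turned to log2 and median-centred, as the alternative called the scanner's processed signals. The authors also deposited a table of linear ratio values (Cy5 over Cy3), with normalization not given in the sources used here; its log2 values correlated at 0.992 to 0.995 with those computed here and served as an alternative. Median intensities were background-corrected (normexp, offset 50), normalized by loess within arrays, freed of control and outlier spots and averaged per probe in limma 3.58.1 (R 4.3.3). Of 55681 probes, 28867 had liver-channel signal well above background on at least 4 arrays; the brightest probe stood for its gene, leaving 21976 features. Accessions without version were matched to the RefSeq table of GRCm38.p6, which named 26413 probes. The fit held dose group and slide (randomized block design, per the labels), with Benjamini-Hochberg adjustment and a threshold of 0.05. It was tested on simulated data. Alternatives covered blocks, background, normalization, filters, probes and left-out arrays. Samples were grouped by their titles. Named genes are all members, list genes that passed at 8 mg/kg or stood among the 3 highest or lowest of their list, and the 10 most like. Members and lists were chosen with earlier results of these data known.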

Additional observations from a re-analysis of the deposited data

Results flagged for a closer look

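Each member was examined in each dose group for a single liver far from the rest of its group, by the gap to its nearest neighbour over the group's range. Of 30 such groups 3 stood out, where chance gives about 1 in 20, or 1.5 of 30. All 3 lay at 8 mg/kg. Acacb had a log2 ratio of 2.73 in replicate 5, below the other 4 livers at 2.97 to 3.06, so the lowest value lay on the side away from the controls. Elovl6 had 2.62 in replicate 4, above the other 4 livers at 2.20 to 2.26. Mlxipl had 6.13 in replicate 2, above the other 4 livers at 5.44 to 5.55, and this array lay on slide 3, where the Mlxipl ratios of the other groups were also the highest.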

How the results depend on the processing

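The members' differences and the counts of calls were recomputed under 28 alternatives, 14 that leave out 1 array each and 14 others, 1 of which (scan day as a block) was chosen after seeing the data. List genes were refitted under 2, without slide 3 and without control replicate 3, also chosen after seeing the data, and second probes, correlations and single-liver gaps under none. Members called at 8 mg/kg against control, 2 with the main settings, were 1 with no slide term, a replicate block, only the arrays of both groups, no background correction, the scanner's processed signals, median centring, the liver channel alone, the authors' table, or no slide 3, and 1 to 3 with 1 array left out. Acacb was called in all 28, at -1.16 to -0.70. Fasn was called in 3 of the 28. With slide as a random block the 2 members called were Acacb and Fasn, and Pklr was not called. Against 1 mg/kg the 2 calls became 0 with the replicate block, 4 with only the arrays of both groups, and 1 with no slide term, slide as a random block, no background correction, processed signals, median centring, the liver channel alone, the authors' table, no slide 3 or scan day as a block, and 1 to 4 with 1 array left out, the 4 without control replicate 3. Deviations of same-numbered arrays correlated at -0.42 to 0.25, with a median of 0.077, against a median of 0.043 for different numbers. Slide was not removed from these deviations, and arrays of the same slide had a median of 0.22. The values therefore cannot settle whether replicate numbers pair the mice. The replicate block left 122 features called at 8 mg/kg against control, against 898 with the slide block. Other counts of that comparison ran from 273 to 1352, and from 315 to 869 with 1 array left out. Against 1 mg/kg they ran from 150 to 1251, with 1162 in the main fit. At 1 mg/kg against control 0 to 4 features and 0 members were called in all 28. Median centring in place of loess moved the median of all features to 0.14 at 8 mg/kg and 0.15 at 1 mg/kg, and its calls at 8 mg/kg were 1303 higher and 49 lower, against 599 and 299 with loess and 696 and 635 from the liver channel alone. The members' median relative to all features was then -0.53, close to the main value, while single differences at 8 mg/kg moved to -0.13 for Acaca, -0.15 for Srebf1, -0.12 for Thrsp and -0.00807 for Mlxipl. Pklr between 8 and 1 mg/kg was 0.20 with the processed signals. At 1 mg/kg against control the sign of differences near 0 turned. Acly was -0.0625 with no slide term, -0.0247 with the replicate block, -0.0215 with a random slide block, -0.0874 with processed signals, -0.0227 from the liver channel, -0.0597 in the authors' table and -0.0924 over all probes. Srebf1 was -0.00669 with the replicate block and -0.0826 with processed signals. Acaca was -0.0880 with processed signals, -0.0558 from the liver channel, -0.0671 in the authors' table and -0.0420 over all probes. With median centring Scd1 was 0.00500, Pklr 0.00402, Thrsp 0.0345 and Mlxipl 0.167. Without slide 3 Fasn was 0.130, Elovl6 0.0468 and Pklr 0.0398. With 1 array left out, Fasn ran from -0.47 to 0.14, Acaca from -0.12 to 0.16, Acly from -0.22 to 0.42, Scd1 from -0.33 to 0.0217, Elovl6 from -0.57 to 0.0512, Srebf1 from -0.0466 to 0.25, Pklr from -0.22 to 0.0448 and Mlxipl from -0.0711 to 0.0599. The cause was not tested.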
